A study of Mus musculus with 4 samples.

Results

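The cells described here were the stem cell gate of mouse bone marrow at homeostasis, that is, single-cell transcriptomes with at least 1 unique molecular identifier (UMI, 1 counted RNA molecule) from at least 5 of 9 genes that mark long-term hematopoietic stem cells (LT-HSCs): Mecom, Hlf, Procr, Mmrn1, Clec1a, Pdzk1ip1, Fgd5, Gng11 and Esam. The gate held 4425 of the 16207 homeostasis cells that carried a single genotype hashtag, or 27.3% (95% exact binomial interval 26.6 to 28.0), and the other 11782 of these singlets were the comparison. Over both libraries of the series, 25236 singlets were called. The gate was set on measured transcripts, so the levels of the 9 genes in gated cells are a description of the choice and not a result.

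Lineage- Sca-1+ cKit+ (LSK) cells, the marrow fraction that holds stem cells and multipotent progenitors (MPPs), were sorted from unstressed C57BL/6 mice and profiled by 10x Genomics 3' scRNA-Seq. Wild-type cells (Sin3B+/+, from Sin3B F/F animals without the recombinase) were marked with an anti-CD45 hashtag, B0096, and Sin3B-/- cells (Sin3B F/F; Vav1-iCre+) with an anti-CD45.2 hashtag, B0157. Cells of 2 male mice per genotype were pooled and all were run in 1 library. The labels name the genotypes only as WT and 3B KO for the whole library, so the genotype of each cell rests on its hashtag, and Vav1-iCre acts from fetal life across blood cells, so Sin3b was deleted in progenitors as well as in stem cells. Age was not given in the sources used here. With 1 pool per genotype no test between genotypes was possible, and every interval below covers counting error only, not the spread between mice.

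LT-HSCs sit at the top of the blood hierarchy, divide rarely and renew themselves for life. They carry Slamf1 (CD150) and give rise to short-term stem cells (ST-HSCs) and then to MPPs, subsets of which gain Cd48 or Flt3 and turn on genes of the lymphoid, myeloid or megakaryocyte-erythroid lineages. Sin3b encodes a scaffold of a histone deacetylase corepressor complex that acts in cell cycle exit.

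Sin3b itself was read first, as the check on the hashtags. In gated cells it stood at 71.9 CPM (UMIs of the gene scaled to a common pool total; 95% Poisson interval 68.8 to 75.0) in wild type and at 22.0 (19.6 to 24.6) in Sin3B-/- cells, a log2 ratio of knockout over wild type of -1.71 (-1.89 to -1.53). The corresponding levels outside the gate were 83.9 and 23.8 CPM. The hashtags thus separated high from low Sin3b within the gate as they did outside it, although Sin3b transcripts remained countable in knockout-tagged cells. The 3' assay does not show whether those transcripts carry the deletion.

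The number of gate genes per cell formed 1 broad distribution in each genotype, with its peak at 3 genes (24.3% of wild-type and 22.1% of Sin3B-/- singlets) and no gap at the threshold. Just inside the gate, 2335 cells had exactly 5 of the genes, 1599 of them wild type and 736 Sin3B-/-. Just outside it, 3336 cells had exactly 4, 2360 wild type and 976 Sin3B-/-. Of the 4425 gated cells, the 2335 with exactly 5 genes were the largest group, and by this count the gate is a range without a gap. Whether the gated cells form a separate population was not tested. All 9 genes were seen in 17 wild-type and 21 Sin3B-/- cells.

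Gated cells made up 24.7% of wild-type singlets (2857 of 11579, 23.9 to 25.5) and 33.9% of Sin3B-/- singlets (1568 of 4628, 32.5 to 35.3), a difference of 9.21 percentage points (95% Newcombe interval 7.64 to 10.8). The gap widened in proportion toward the upper end: 3.73% of wild-type and 7.61% of Sin3B-/- cells had 7 or more gate genes. At equal depth, with every cell thinned to 4000 UMIs and 835 wild-type and 360 Sin3B-/- shallower cells left out, 8.86% of wild-type and 16.3% of Sin3B-/- cells passed, a difference of 7.47 points (6.26 to 8.72). Sin3B-/- cells were thus the more often gated at both depths.

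The size of that difference rested on how the hashtags were read. Requiring 80% of a cell's hashtag UMIs to come from 1 tag gave 25.5% of 6973 wild-type cells and 48.9% of 1026 Sin3B-/- cells, 23.5 points apart (20.3 to 26.7). A 2-component mixture of the tag ratio, which assigned 10083 cells to the knockout, gave 26.4% and 27.5%, which are 1.11 points apart (-0.04 to 2.26). Sin3b in gated wild-type and Sin3B-/- cells was at 78.4 and 23.6 CPM under the 80% rule and at 69.4 and 24.8 CPM under the mixture. Among cells with neither tag, 21.3% of 6283 passed the gate (20.3 to 22.4), and their gated cells had Sin3b at 32.9 CPM (29.3 to 36.9), nearer to the Sin3B-/- than to the wild-type level. The 80% rule, the main reading and the mixture assigned 1026, 4628 and 10083 cells to the knockout. Gate shares of these cells fell in that order, at 48.9%, 33.9% and 27.5%, against 25.5%, 24.7% and 26.4% in wild type. The higher gate share of Sin3B-/- cells was therefore clear only where fewer cells were read as knockout, and its interval reached 0 under the mixture. The genotype comparisons below use the 4628 Sin3B-/- singlets of the main reading.

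**Figure D1:**
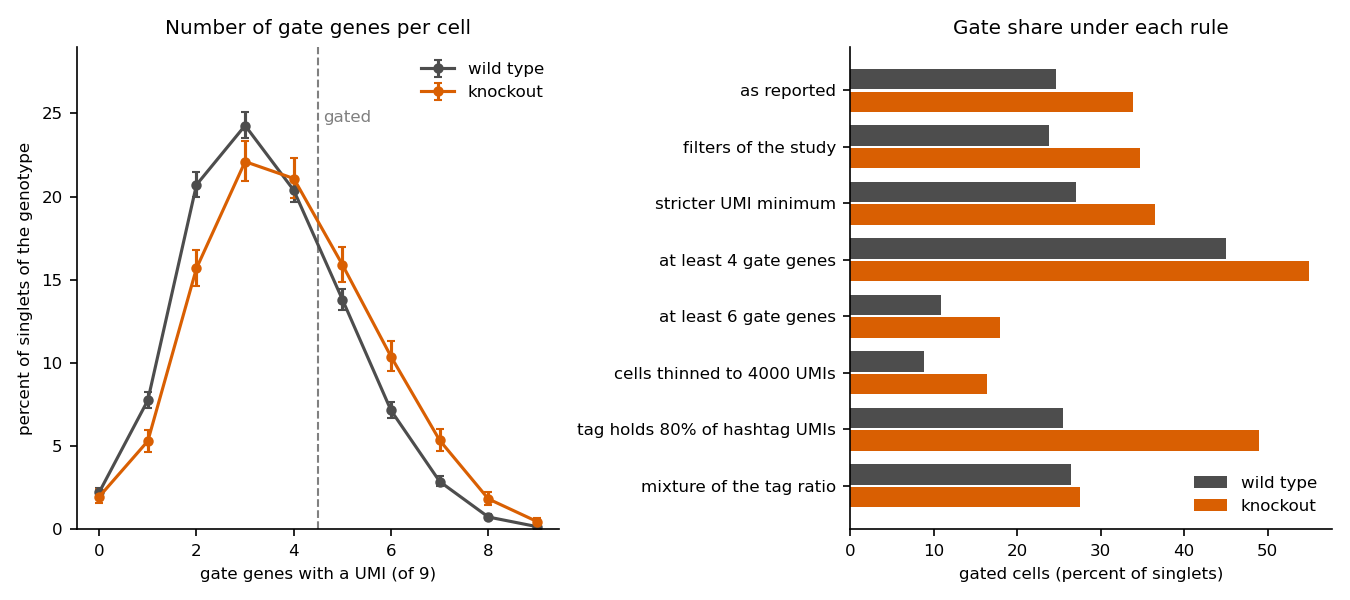
Left, percent of wild-type and Sin3B-/- (knockout) singlets with each number of gate genes, from 0 to 9, with 95% binomial intervals. Right, bars from 0 give the percent of each genotype inside the gate under 8 rules. The rule labeled filters of the study applies only part of them. The genotypes peak together at 3 genes, the Sin3B-/- share is higher at 5 genes and above, and the bars nearly meet under the mixture reading of the hashtags (26.4% and 27.5%).

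Gated cells were deeper than the others. Median UMIs were 8363 in gated and 6769.5 in other wild-type cells, and 7112 and 6403.5 in Sin3B-/- cells. By number of gate genes the median went from 6606 UMIs in cells with none to 11417 in cells with all 9. Over 4 equal depth groups, from the shallowest (below 5248 UMIs) to the deepest (above 10239), 19.9%, 19.8%, 20.5% and 37.6% of wild-type cells were gated, so that the share was level over the lower 3 groups. In Sin3B-/- cells the shares were 28.0%, 32.3%, 34.5% and 42.5%. The parts of counting depth and of RNA content per cell in these shares cannot be told apart. Cells with both hashtags, which were removed, passed the gate in 46.1% of 1441 cases, with a median of 13844 UMIs in the gated ones. Doublets within a genotype carry a single hashtag and remain among the singlets. Thinning does not remove them, and their part in the gated values was not tested. Of the gated cells deep enough to be thinned, only 35.2% of wild-type and 47.2% of Sin3B-/- cells passed the gate again at 4000 UMIs. For the main gene lists whose median moved by over 1.5 times in the gate at equal depth, that median is given as well.

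The 9 gate genes divided into a broad pair and a sparse 7. Mecom and Hlf, transcription factors needed to maintain stem cells, were found together in 98.4% of gated wild-type and 98.2% of gated Sin3B-/- cells, but also in 75.9% and 78.6% of the other singlets. A Mecom UMI was also present in 84.6% of cells outside the gate that carried neutrophil granule transcripts, a class in which stem cell genes should be low. Mecom stood at 371 CPM in these cells and at 342 CPM in free RNA, and Hlf at 282 and 204 CPM. The part of free RNA in this share was not tested. The share of these deep cells (median 13710 UMIs) with a UMI of the remaining 7 genes went from 3.2% for Clec1a to 30.9% for Gng11. Cells of this class inside the gate were left out, so low shares of the 7 genes here follow in part from the rule. Most singlets outside the gate also had both Mecom and Hlf. For such cells, entry to the gate was decided by how many of these 7 genes they showed. Exactly 3 of these 7 were present in 54.8% of gated wild-type and 45.6% of gated Sin3B-/- cells. Over all 4425 gated cells the 7 genes occurred in 99 distinct combinations, the commonest of which was Mmrn1 with Pdzk1ip1 and Gng11 (359 cells, 8.11%).

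Within the gate, Clec1a, a C-type lectin-like receptor gene, differed most between genotypes among the 9. It stood at 33.4 CPM in gated wild-type and 76.9 CPM in gated Sin3B-/- cells, and 25.7% and 42.9% of these cells had a UMI. When Clec1a was left out of the gate, it was at 25.2 and 63.8 CPM in cells with at least 5 of the other 8 genes and at 7.8 and 18.7 CPM in cells with fewer. Pdzk1ip1 was at 113 and 170 CPM in gated cells, and Procr, which encodes the protein C receptor (EPCR, CD201), at 67.4 and 93.0 CPM. Hlf (777 and 767 CPM), Gng11 (132 and 133 CPM) and Fgd5 (45.1 and 49.3 CPM) were close to level between genotypes.

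The identity of the gated cells was checked on genes the rule had not used, with the caution that these came from the same cells. Of 15868 genes with at least 50 UMIs over both pools, 3.56% were at least 2-fold higher and 1.37% at least 2-fold lower in gated than in other singlets, and 62.4% were higher by any amount, with a median log2 ratio of 0.07 over all genes. Against that background, 12 of 24 stem cell surface and secreted genes were at least 2-fold higher, 23 of 24 were higher at all, and their median was 1.03. Stem cell transcription factors leaned the same way with smaller ratios, 17 of 19 higher and a median of 0.43. All 12 measured megakaryocyte genes, which share Vwf and other members with the surface list, were higher (median 0.86).

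Slamf1, whose product CD150 is used to sort LT-HSCs, went from 3.9 CPM in other wild-type cells to 10.7 CPM in gated ones and from 8.0 to 32.1 CPM in Sin3B-/- cells. At 4000 UMIs it was detected in 3.58% of gated wild-type and 11.8% of gated Sin3B-/- cells, against 1.39% and 3.15% of the other singlets. Among the neutrophil-primed cells outside the gate, with both genotypes together, the share was 0.67%. Vwf, a clotting factor of platelet-biased stem cells, was at 14.1 CPM in gated and 4.4 CPM in other wild-type cells, and at 28.8 and 7.7 CPM in Sin3B-/- cells. Hoxb5, a homeobox gene that marks LT-HSCs, was at 7.0 and 3.0 CPM in wild type and at 16.8 and 7.2 CPM in Sin3B-/- cells. Each of these 3 was ordered in the same way, lowest in wild-type cells outside the gate and highest in gated Sin3B-/- cells.

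Further members of the surface list were Gda, a guanine deaminase gene (log2 ratio of gated over other cells 2.05), Sult1a1, a sulfotransferase gene (1.90), Tgm2, a transglutaminase gene (1.74), Itgb3, the integrin subunit CD61 (1.48), and Tek, the receptor of angiopoietins (1.28). Cd27 was the 1 gene of the list that was lower in the gate (-0.18), and Kit, on which the sort itself selects, was 0.23 higher. The list was therefore not uniform.

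MPP surface genes went the other way, and Flt3 and Il7r of this list also belong to the lymphoid list below. In all, 9 of 10 were lower in gated cells, 2 of them by at least 2-fold, with a median of -0.74. In the gate at 4000 UMIs 6 of 10 were at least 2-fold lower and the median was -1.42. Cd48, the SLAM family receptor absent from LT-HSCs, was at 70.4 CPM in gated and 124 CPM in other wild-type cells, and at 30.7 and 70.9 CPM in Sin3B-/- cells. Flt3, a receptor tyrosine kinase gained with loss of long-term renewal, was at 286 and 423 CPM in wild type and at 202 and 397 CPM in Sin3B-/- cells. At 4000 UMIs, 18.5% of gated wild-type and 7.31% of gated Sin3B-/- cells still had a Cd48 UMI, and 52.6% and 38.1% a Flt3 UMI. Free RNA held Cd48 at 65.4 CPM and Flt3 at 146 CPM, and its part in these shares was not tested.

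Retinoid and imprinted genes are both tied to stem cell dormancy. Of 8 measured retinoid genes, 6 were higher in the gate with a median of 0.42, and 3 at least 2-fold: Cyp26b1, which degrades retinoic acid (log2 ratio 2.70), Rarb, a retinoic acid receptor (2.08), and Aldh1a1, which makes retinoic acid (1.93). Of 7 measured imprinted genes, 6 were higher with a median of 1.13, and 4 at least 2-fold, among them the noncoding RNA Meg3 (2.08) and the signaling adaptor Grb10 (1.51). Quiescence and arrest genes were less uniform, with 11 of 15 higher and a median of 0.15, led by Ndn (1.50) and by the cyclin-dependent kinase inhibitor Cdkn1c (1.23), which is imprinted as well.

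The leading genes by rank were mostly not classical stem cell markers. Chosen for the size of their ratio, they are a description. Ncam2, a neural cell adhesion molecule, was the most abundant of them, at 55.6 CPM in gated and 10.2 CPM in other wild-type cells and at 123 and 22.0 CPM in Sin3B-/- cells. Chrm3, a muscarinic acetylcholine receptor, was at 38.0 and 7.6 CPM in wild type and at 44.6 and 10.6 CPM in Sin3B-/- cells. Smtnl1 (log2 ratio 2.79), Hoxb8 (2.76), Shisa9 (2.70), Slc17a8 (2.51) and Pkhd1l1 (2.45) were rarer, all under 18 CPM in gated cells of either genotype. For some of them 10 cells held much of the signal in gated wild-type and gated Sin3B-/- cells, with 49.2% and 52.6% of the Shisa9 UMIs, 40.4% and 35.8% of those of Slc17a8 and 46.4% and 22.7% of those of Hoxb8. Kcnb2, a potassium channel gene, had the highest rank (3.04), but 62.9% of its 232 UMIs in gated Sin3B-/- cells came from 10 cells. It was seen in 0.770% of gated and 0.390% of other wild-type cells, and in 2.68% and 0.425% of Sin3B-/- cells. Akr1c19 (3.12) and Amotl2 (2.72) were at lower levels in gated cells than in the free RNA of barcodes with 10 to 100 UMIs (11.6 and 14.2 CPM).

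**Figure D2:**
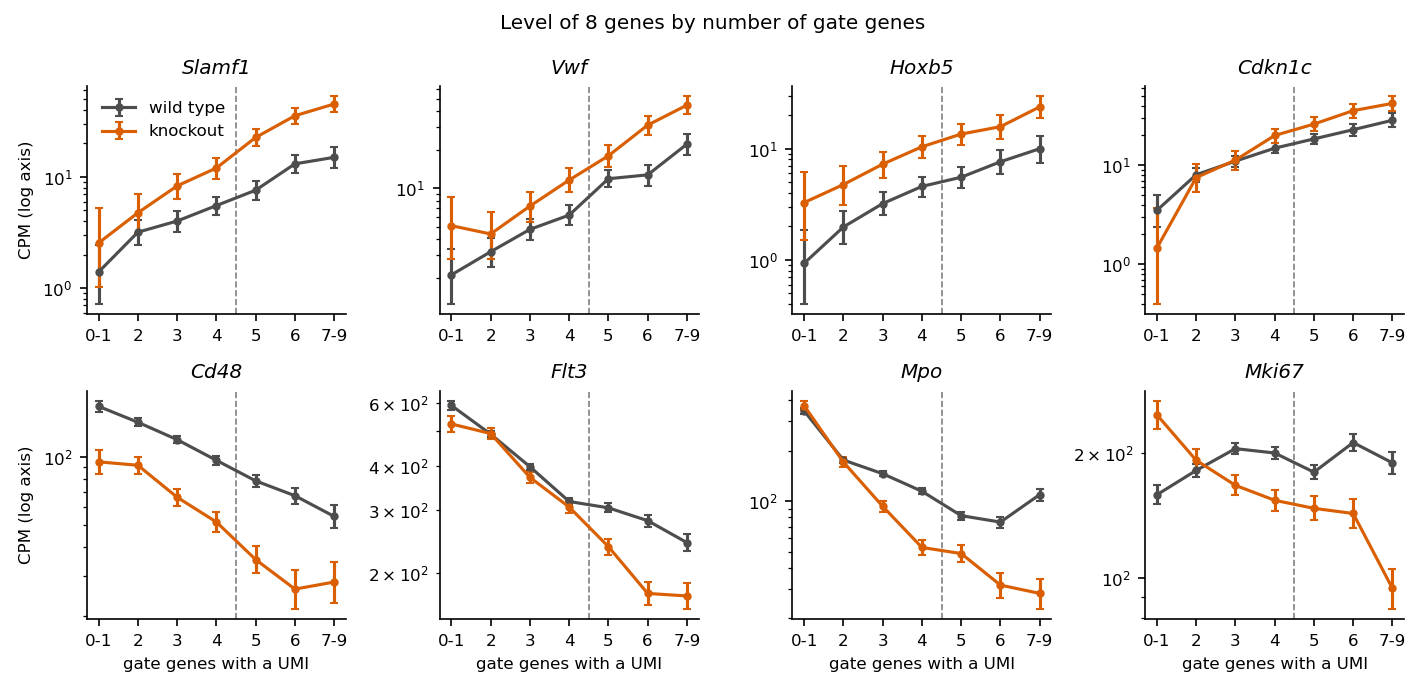
Level of 8 genes (CPM, log axis) in cells grouped by number of gate genes, wild type and Sin3B-/- apart, with 95% Poisson intervals. Slamf1, Vwf, Hoxb5 and Cdkn1c climb with the number of gate genes and Cd48 and Flt3 descend, in both genotypes. Mpo descends in Sin3B-/- cells, while in wild type it is at 75.0 CPM with 6 gate genes and at 110 CPM with 7 to 9. Mki67 lies between 158 and 212 CPM in wild type, lowest in cells with 0 or 1 gate genes, and descends in Sin3B-/- cells.

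Levels followed the number of gate genes in steps rather than at the threshold. From cells with 0 or 1 gate genes to cells with 7 to 9, Slamf1 went from 1.4 to 14.99 CPM in wild type and from 2.6 to 45.1 CPM in Sin3B-/- cells. Cdkn1c went from 3.5 to 28.5 CPM in wild type and from 1.5 to 42.2 CPM in Sin3B-/- cells. Cd48 went down from 166 to 54.6 CPM and from 94.7 to 28.1 CPM. Sin3B-/- cells with 5 gate genes, at 22.6 CPM of Slamf1 and 35.3 CPM of Cd48, were past the wild-type cells with 7 to 9 (14.99 and 54.6 CPM) on both genes.

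Mitosis transcripts did not set the gated cells apart from the others in wild type, while a published signature of resting (G0) cells was higher in the gate. Its mean per 10000 UMIs, on cells thinned to 4000 UMIs, was 86.3 in gated and 79.0 in other wild-type cells and 94.9 and 85.7 in Sin3B-/- cells, and 41 of its 45 genes were higher in gated cells. DNA replication genes were lower in the gate for all 24 of 24, by a median of -0.36 and none of them by 2-fold. Mitosis genes were lower for 18 of 20 with a median of only -0.12, and within wild type alone the median was 0.01. At 4000 UMIs, 28.8% of gated wild-type cells (27.1 to 30.5) had transcripts of at least 3 mitosis genes, against 28.6% of other wild-type cells. In Sin3B-/- cells the shares were 15.9% (14.1 to 17.9) and 21.5%. For replication genes the shares at 4000 UMIs were 45.6% of gated (43.7 to 47.5) and 51.9% of other wild-type cells, and 34.0% and 43.0% of Sin3B-/- cells. With all UMIs of the same cells, mitosis genes were found in 42.9% of gated and 39.6% of other wild-type cells and in 28.8% and 32.6% of Sin3B-/- cells. Replication genes were then found in 70.3% and 69.5% of wild-type and in 59.99% and 61.4% of Sin3B-/- cells. In wild type, replication genes were thus found less often in cells gated as counted at 4000 UMIs but not with all UMIs, and mitosis genes were less frequent in neither reading. The cells are called gated cells below rather than stem cells.

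At equal depth the picture changed. Among cells that passed the gate on 4000 UMIs, 14.2% of wild-type and 7.17% of Sin3B-/- cells had 3 mitosis genes, against 30.0% and 22.0% of the cells that did not. Replication genes behaved alike, with 29.5% and 23.8% inside and 52.4% and 43.0% outside. In the gene comparison at that depth, where 5.21% of 14210 genes were at least 2-fold higher, 3.85% at least 2-fold lower and 56.0% higher by any amount in the gate, 17 of 20 mitosis genes and 17 of 24 replication genes were at least 2-fold lower (medians -1.30 and -1.22). Both shares were thus lower inside than outside the gate at equal depth, in both genotypes.

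**Figure D3:**
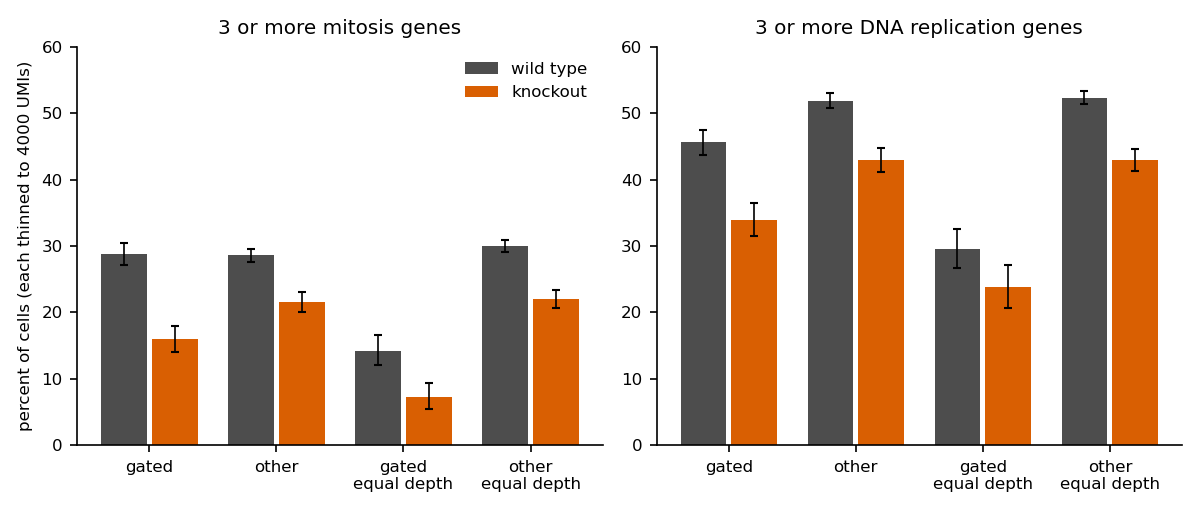
Percent of cells with transcripts of at least 3 mitosis genes or at least 3 DNA replication genes, counted on 4000 UMIs per cell, with 95% binomial intervals, for gated and other singlets of each genotype under the gate as counted and the gate at 4000 UMIs. Wild-type gated and other cells overlap for mitosis under the gate as counted (28.8% and 28.6%) and separate at equal depth (14.2% and 30.0%), and the Sin3B-/- gated cells are lowest throughout.

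Neutrophil and lymphoid transcripts were lower in the gate. All 11 measured neutrophil granule genes were lower, 7 by at least 2-fold (median -1.12), and all 12 lymphoid priming genes, 8 by at least 2-fold (median -1.03). In the gate at 4000 UMIs the medians were -1.88 over 10 measured granule genes, 1 of which was higher, and -1.64 over the 12 lymphoid genes. Dntt, the terminal transferase of early lymphoid cells, was at 61.9 CPM in gated and 208 CPM in other wild-type cells and at 20.8 and 94.4 CPM in Sin3B-/- cells. Mpo, the myeloperoxidase of neutrophil precursors, was at 85.0 and 170 CPM in wild type and at 38.3 and 132 CPM in Sin3B-/- cells. Erythroid genes showed no lean (6 of 11 higher, median 0.06, which turned to -0.84 at 4000 UMIs). B cell (median -0.98), mast cell and basophil (-0.76) and monocyte and dendritic cell genes (-0.69) were lower. In the gate at 4000 UMIs these medians were -1.02, -2.43 (3 measured genes) and -1.56.

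Among cells classed by lineage transcripts as counted, 20.7% of gated and 32.0% of other wild-type cells were lymphoid-primed (at least 4 genes of the list), as were 8.67% and 19.5% of Sin3B-/- cells. Neutrophil-primed cells (at least 10 UMIs of granule genes) were 7.84% and 7.03% of wild-type cells and 3.44% and 4.31% of Sin3B-/- cells. Megakaryocyte-erythroid primed cells (at least 4 genes) went the other way, with 4.90% of gated and 1.80% of other wild-type cells and 5.29% and 3.04% of Sin3B-/- cells. At 4000 UMIs with the same cuts, 1.58% of the 952 wild-type cells gated at that depth and 17.0% of the cells outside were lymphoid-primed, and 0.210% and 0.541% were megakaryocyte-erythroid primed (0.430% and 1.54% in Sin3B-/- cells). The gated shares of the megakaryocyte-erythroid class at that depth rest on 2 wild-type and 3 Sin3B-/- cells, and the higher share in the gate was not seen there. With the gate as counted and the class at 4000 UMIs, they were 0.591% (0.338 to 0.958) of gated and 0.485% (0.345 to 0.663) of other wild-type cells. In Sin3B-/- cells these shares were 1.49% (0.936 to 2.25) and 1.29% (0.905 to 1.78), so the intervals overlapped in both genotypes. For the neutrophil class few cells reached 10 UMIs at that depth. They were 3 of 2707 wild-type cells gated as counted, or 0.111% (0.0229 to 0.324), against 1.01% (0.801 to 1.25) of the other wild-type cells, so the order as counted turned. At the equal-depth gate they were 0 of 952 gated cells, with an exact upper limit of 0.387%, and 0.858% (0.685 to 1.06) of the cells outside.

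The genes lowest in the gate by rank were mostly genes of mature neutrophils and of antibody-producing cells, and included the T cell receptor gene Tcrg-C1. Neutrophil granule genes Ngp (log2 ratio -5.02), Ltf (-5.21), S100a9 (-3.71), S100a8 (-3.53) and Lcn2 (-3.37) and the antibody genes Iglc1 (-4.91), Igha (-4.40) and Jchain (-4.12) led this ranking. Of the UMIs in other wild-type cells, 10 cells held 98.3% for Iglc1, 96.4% for Igha and 97.0% for Jchain, so these ratios describe few cells. The same held for the granule genes, of whose UMIs in other wild-type cells 10 cells held 95.1% for Ngp, 100.0% for Ltf, 88.7% for S100a9, 87.7% for S100a8 and 86.4% for Lcn2. With a gate of at least 4 genes the ratio turned to 5.44 for Iglc1 and 0.42 for Igha, and for Iglc1 also to 0.33 under the 80% tag rule and 0.25 with part of the study's filters. Which cells carried these transcripts was not tested. Genes of the sort's own lineage antibodies and of mature cells summed to 43.8 CPM in the gate and 154 CPM outside. The sum outside was 122 CPM in wild-type and 251 CPM in Sin3B-/- cells. It includes S100a8 and S100a9, of whose UMIs in other Sin3B-/- cells 10 cells held 96.9% and 96.1%. Cd3e and Ly6g had no UMI in gated cells.

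Endothelial genes were higher in the gate as well. The 8 genes of the endothelial list summed to 54.8 CPM in gated wild-type and 71.7 CPM in gated Sin3B-/- cells, against 32.3 and 33.1 CPM in other cells, and 6 of 7 measured ones were higher in the gate (median 0.80). In the gate at 4000 UMIs only 3 could be measured, all of them higher, and the median was 2.28. Tie1, an endothelial receptor that hematopoietic stem cells also express, gave most of the sum (45.9 and 54.8 CPM in gated cells). Cdh5, the defining cadherin of endothelium, had 7 UMIs in gated wild-type and 1 in gated Sin3B-/- cells. Cldn5 was seen in 2.77% of gated wild-type and 3.70% of gated Sin3B-/- cells, against 0.952% and 0.719% of other cells. Of its UMIs in gated Sin3B-/- cells, 38.5% came from 10 cells. Kdr (1.65% and 1.85%, against 0.413% and 0.294%) and Sox18 (0.980% and 0.638%, against 0.149% and 0.0654%) were also seen more often in the gate. The stromal list had a median of 0.69 in gated over other singlets as counted and of -0.03 at 4000 UMIs. Between genotypes in the gate its median was 0.55, from -1.14 to 0.87 under the alternative settings. Its member Cxcl12 had no UMI in gated cells. The part of stray endothelial or stromal cells in the gated values was not tested.

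Published signatures that the study used to name its clusters were read as summed UMIs per 10000, on cells thinned to 4000 UMIs. The LT-HSC signature had a mean of 423 in gated and 401 in other wild-type cells, and of 481 and 435 in Sin3B-/- cells. The ST-HSC signature had a mean of 308 and 365 in wild type and of 272 and 341 in Sin3B-/- cells. Gene by gene, 94 of 111 LT-HSC signature genes were higher in the gate, 30 of them by at least 2-fold, and 16 of 116 ST-HSC signature genes were. The LT-HSC and ST-HSC signatures thus moved in opposite directions between the gated and the other cells, although single cells overlapped widely. The quartiles of the LT-HSC signature were 367.5 and 470.0 in gated and 357.5 and 442.5 in other wild-type cells. The MPP2 signature was higher in the gate as well, with means of 35.5 and 29.4 in wild type and of 37.3 and 29.8 in Sin3B-/- cells. The MPP3 (44.0 and 49.9, then 40.5 and 46.2) and MPP4 signatures (65.8 and 79.6, then 57.2 and 67.8) were lower.

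**Figure D4:**
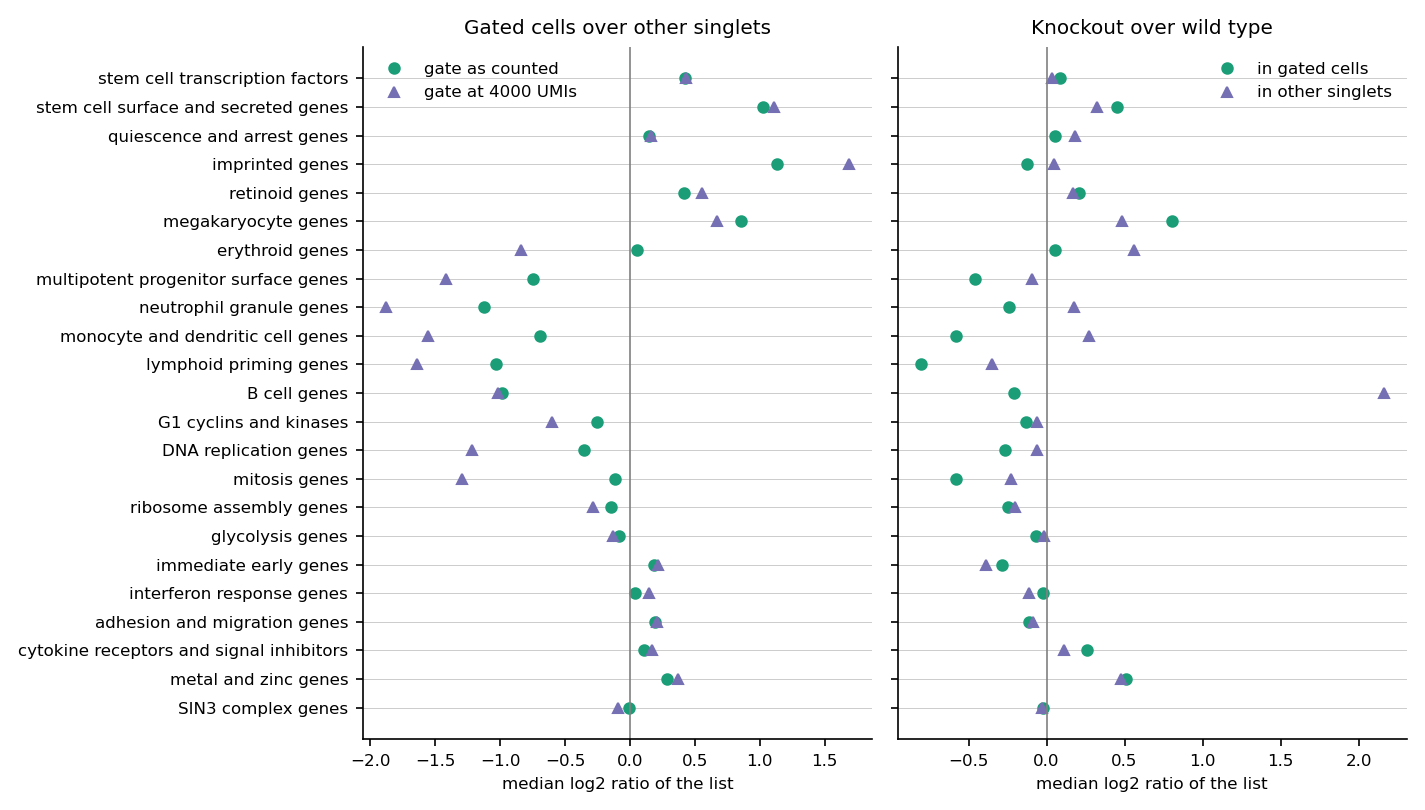
Median log2 ratio of 23 gene lists. Left, gated over other singlets, with the gate as counted and at 4000 UMIs. Right, Sin3B-/- over wild type, in gated cells and in other singlets. Stem cell, imprinted and megakaryocyte lists lie to the right in the left panel, neutrophil, monocyte, lymphoid and B cell lists to the left, the erythroid list at 0.06 as counted and -0.84 at equal depth, and replication and mitosis move from -0.36 and -0.12 to -1.22 and -1.30 at equal depth.

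The genotypes were then compared within the gate, to set Sin3B-/- against wild-type cells of like stem cell gene content. Of 13712 genes measured in gated cells, 1.39% were at least 2-fold higher and 1.66% at least 2-fold lower in Sin3B-/- cells, and 49.8% were higher by any amount, around a median of 0. Outside the gate the shares were 1.55% and 2.04% of 14940 genes, so the genotypes were about as far apart in either compartment. The gated cells of the 2 genotypes were not matched in gate gene number, since 352 of 1568 gated Sin3B-/- cells and 432 of 2857 gated wild-type cells had 7 or more genes. Doublets within a genotype also remain in both pools, and their part in the differences below was not tested.

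Stem cell surface genes were higher in Sin3B-/- gated cells for 20 of 24, with 4 at least 2-fold higher and a median log2 ratio of 0.45. Slamf1 had the steepest difference (1.59, 95% counting interval 1.38 to 1.81), followed by Sult1a1 (1.54, 1.41 to 1.67), Itgb3 (1.20, 1.04 to 1.36) and Vwf (1.03, 0.83 to 1.23). Outside the gate the same 4 genes were at 1.03, 1.57, 1.14 and 0.80. For Slamf1 the interval in the gate lay above that outside it (upper bound 1.30), and the difference between the compartments was not tested.

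Transcription factors of the stem cell list were mixed, with 13 of 19 higher and a median of 0.09. Gata2, which guards stem cell quiescence, was at 118 CPM in wild-type and 188 CPM in Sin3B-/- gated cells. Hoxb5 differed by 1.26 on the log2 scale on both sides of the gate. Nkx2-3 went the other way, from 94.4 CPM in wild-type to 63.4 CPM in Sin3B-/- gated cells, and Meis1 (1087 and 1185 CPM) and Prdm16 (81.5 and 92.5 CPM) were close. The higher levels in Sin3B-/- cells were therefore particular genes and not the whole program of factors.

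Megakaryocyte genes were higher in Sin3B-/- gated cells for 11 of 12, with a median of 0.80 (0.44 to 0.91 under the alternative settings). Pf4, the platelet chemokine CXCL4, was at 49.0 and 182 CPM, but 10 cells held 55.8% of its UMIs in Sin3B-/- gated cells, and at equal depth its ratio was 0.80 instead of 1.89. Retinoid genes were higher for 7 of 8, with Cyp26b1 at 1.42, Aldh1a1 at 1.39 and Rarb at 1.21.

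MPP surface genes were lower in Sin3B-/- gated cells for 9 of 10, with a median of -0.46. Cd48 differed by -1.19 (-1.35 to -1.04), Cd34 by -0.60 (-0.67 to -0.54) and Flt3 by -0.50 (-0.56 to -0.44). Outside the gate Flt3 differed by only -0.09 and Cd34 by -0.23, so for these the genotypes lay further apart within the gate than outside it, a difference that was not tested. Lymphoid priming genes were lower for all 12, 4 of them by at least 2-fold (median -0.81, against -0.35 outside), led by Dntt (-1.57) and Cd52 (-1.22).

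Neutrophil granule genes were lower for 9 of 10, with a median of -0.24 inside the gate and 0.17 outside it. Under the alternative settings the median inside the gate ranged from -0.81 to -0.16. Mpo differed by -1.15 and Ctsg, the cathepsin G gene, by -1.61. Elane, the neutrophil elastase gene, was at 15.3 CPM in wild-type and 2.1 CPM in Sin3B-/- gated cells, a ratio of -2.82 that went to 0.40 outside the gate. Of its 440 UMIs in gated wild-type cells, 63.0% came from 10 of them. Outside the gate 10 cells held 68.2% of its UMIs in wild-type cells and 85.7% of its 1121 UMIs in Sin3B-/- cells. In the gate at equal depth Elane had only 8 UMIs in wild-type and 7 in Sin3B-/- cells, too few for a comparison.

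Mitosis genes were lower in Sin3B-/- gated cells for all 20, by a median of -0.58, against -0.23 outside the gate. Ube2c, the ubiquitin-conjugating enzyme of mitotic exit, differed by -0.92, Cenpf, a kinetochore protein gene, by -0.84 and Mki67, the proliferation antigen Ki-67, by -0.53. Among cells with exactly 5 gate genes the median was -0.52, with 6 it was -0.49, and with 7 or more all 20 were lower. The median over all genes was -0.01, 0.00 and 0.00 in these groups, so the difference was present at each level of the gate. At equal depth, where 0.801% of 10237 genes were at least 2-fold higher, 1.07% at least 2-fold lower and 49.6% higher by any amount, none of 16 measured mitosis genes was higher, 5 were at least 2-fold lower and the median was -0.81. Gated Sin3B-/- cells were shallower than wild-type ones (7112 and 8363 median UMIs), and within the cells gated at 4000 UMIs, where depth was equal, 7.17% and 14.2% had 3 mitosis genes. The paper reports that Sin3B-/- LT-HSCs were shifted from quiescence toward G1. It read this from a signature in clustered cells and from DNA label uptake and protein levels in sorted ones. Those cells and measures differ from transcripts of this gate, and the readings were not compared here.

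The G1 kinase gene Cdk6, which sets how readily stem cells leave rest, was at 1190 CPM in wild-type and 719 CPM in Sin3B-/- gated cells, and at 1366 and 1017 CPM outside. Its partner cyclin gene Ccnd3 went the other way, at 505 and 743 CPM in gated cells. Ccnd1 was level (22.8 and 21.2 CPM). Over the list of G1 cyclins and kinases 5 of 14 were higher, with a median of -0.13. DNA replication genes were higher for 1 of 24 (median -0.27, from -0.47 to -0.08 under the alternative settings). Genes of the SIN3 complex other than Sin3b, and of the DREAM and Rb family, were near level, with medians over the whole lists of -0.03 and -0.11 (the latter above 0 at 4000 UMIs and under the 80% tag rule), and Sin3a, the paralog of Sin3b, was at 68.5 and 64.4 CPM.

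Of the lists that answer to the outside of the cell, immediate early genes were lower in Sin3B-/- gated cells for 12 of 14 (median -0.29). Fos was at 44.6 and 20.4 CPM and Egr1 at 40.4 and 18.9 CPM, with ratios of -1.13 and -1.09 in the gate and of -1.20 and -1.26 outside. Both were far more abundant in free RNA (1151 and 447 CPM). Among cytokine receptors and signal inhibitors 11 of 18 were higher, and the STAT-induced inhibitors Socs2 (1.18) and Cish (1.15) were at least 2-fold higher while Il18r1, an interleukin-18 receptor subunit, was lower (-1.62). Adhesion and migration genes were not shifted as a list (7 of 21 higher, median -0.11), although Jam2, a junctional adhesion molecule, was 1.30 higher.

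Metallothioneins, small zinc-binding proteins induced by metal through the factor Mtf1, were among the clearest differences. Mt1 was at 29.3 CPM in wild-type and 111 CPM in Sin3B-/- gated cells (1.92, 1.79 to 2.04) and at 19.1 and 81.8 CPM outside the gate. Mt2 was at 4.2 and 22.4 CPM in gated cells (2.40, 2.10 to 2.72) and at 2.8 and 11.5 CPM outside. Of the Mt2 UMIs, 10 cells held 54.1% in gated and 49.2% in other wild-type cells, and 24.6% in gated and 56.1% in other Sin3B-/- cells. In cells with 2 gate genes Mt2 was at 1.3 CPM in wild-type and 1.8 CPM in Sin3B-/- cells, and with 3 gate genes at 4.1 and 4.8 CPM, so outside the gate the difference was not seen at every number of gate genes. Free RNA held more of Mt1 and Mt2 (561 and 268 CPM), and its part in the genotype difference was not tested. At 4000 UMIs Mt2 was detected in 1.03% of gated wild-type and 6.97% of gated Sin3B-/- cells, against 0.622% and 2.15% of the other singlets. Among neutrophil-primed cells outside the gate, with both genotypes together, the share was 1.08%. The list as a whole had 5 of 6 genes higher, with Mtf1 itself at 22.0 and 37.6 CPM.

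The promoters of both genes are shown because they moved together and metal response elements are known to drive them. RefSeq promoter sequence (GRCm38.p6, plus strand) was searched on both strands, over the 250 bases before each start, for the string TGCNCNC, with N any base. This string is looser than the metal response element core, which has A or G as its 4th letter. The string was found 5 times before Mt2 and once before Mt1. Bases after each start were not searched, so these counts depend on where RefSeq places the start. At sites 2 and 4 of Mt2 the 4th letter, read on the matching strand, is T. Of 32851 promoters searched in the same way, 44.4% had at least 1 match and 0.344% at least 5, so 1 match of the string is common and 5 are rare. Matches of the narrower core were not counted. Capitals mark the matched string, or its reverse complement where the match is on the opposite strand. The sites lie 223, 178, 128, 113 and 50 bases before the start of Mt2 and 23 bases before that of Mt1, and the windows of sites 3 and 4 overlap.
Mt2 site 1, chr8:94172385-94172411: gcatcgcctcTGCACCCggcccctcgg
Mt2 site 2, opposite strand, chr8:94172430-94172456: gggcgcgcgcGGGAGCAagcaggtgtc
Mt2 site 3, chr8:94172480-94172506: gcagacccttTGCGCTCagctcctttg
Mt2 site 4, chr8:94172495-94172521: tcagctccttTGCTCTCagtccctgag
Mt2 site 5, opposite strand, chr8:94172558-94172584: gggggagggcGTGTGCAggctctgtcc
Mt1 site 1, chr8:94179056-94179082: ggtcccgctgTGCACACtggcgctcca

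A match of these letters describes the sequence and does not show that Mtf1 binds there in these cells.

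**Figure D5:**
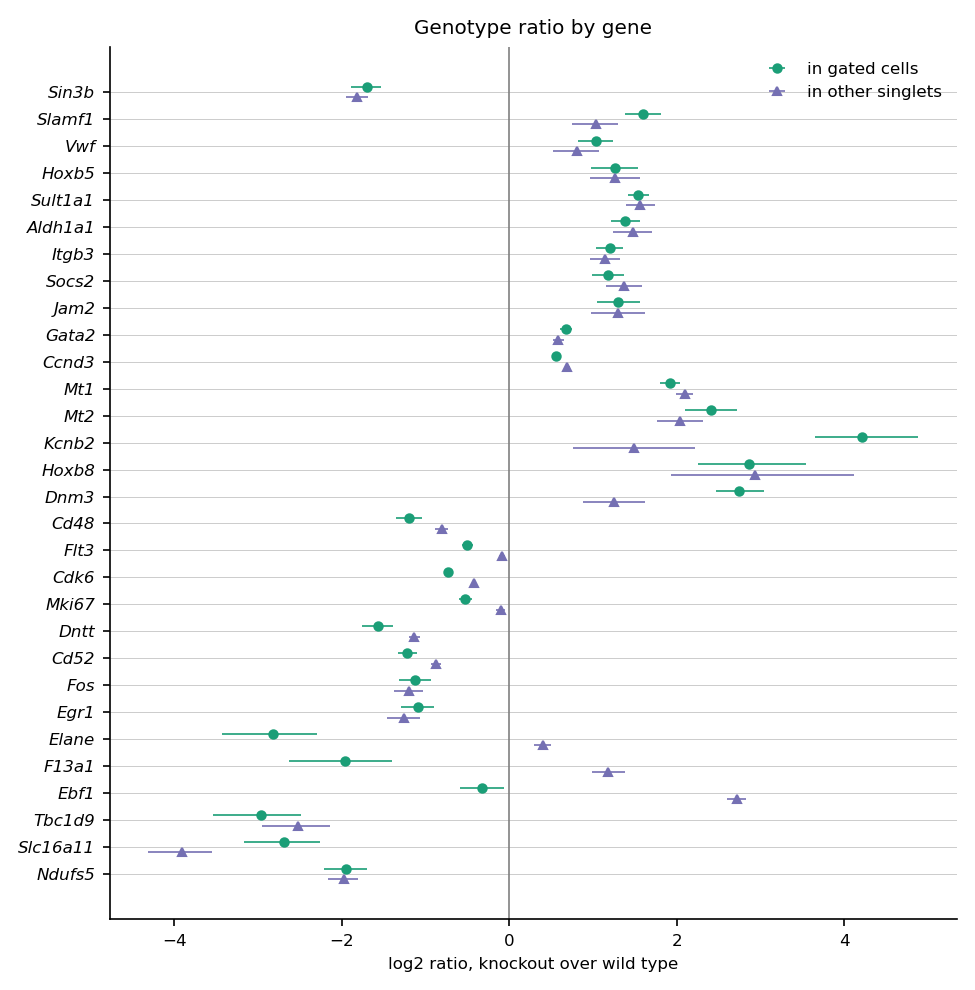
Log2 ratio of Sin3B-/- over wild type for 30 genes, in gated cells and in other singlets, with 95% counting intervals. Slamf1, Mt1, Mt2 and Aldh1a1 lie to the right and Cd48, Dntt and Mki67 to the left, and Elane lies far to the left in gated cells and to the right in other singlets.

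The largest genotype differences by rank, chosen for their size, were mostly genes outside the lists above. Agbl4, a tubulin deglutamylase gene, was the most abundant, at 34.4 CPM in wild-type and 179 CPM in Sin3B-/- gated cells, and Elavl4, a neuronal RNA-binding protein gene, was at 5.0 and 25.7 CPM. Both were further apart outside the gate (3.62 and 3.51) than inside it (2.38 and 2.37). Dnm3, a dynamin gene of stem cells and megakaryocytes, went from 4.8 to 31.9 CPM in gated cells, a ratio of 2.74 against 1.25 outside. Slc5a9 (3.60), Sva (2.85) and Gm37068 (2.82) were rarer, and Tex21 (3.63) and Kcnb2 (4.22) rested on few cells.

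Among genes lower in Sin3B-/- gated cells, Tbc1d9 was at 19.3 and 2.4 CPM, the transporter gene Slc16a11 at 21.6 and 3.3 CPM, the ephrin receptor gene Epha7 at 20.7 and 5.1 CPM and Ndufs5, a subunit gene of respiratory complex I, at 41.2 and 10.7 CPM. Ndufs5 was seen in 913 gated wild-type cells, so its level did not rest on few of them. The ratios of these 4 genes outside the gate were -2.53, -3.91, -1.73 and -1.98, of the same sign as those inside it (-2.97, -2.69, -2.02 and -1.95), and for Slc16a11 the genotypes lay further apart outside the gate. Skint3 had 78 UMIs in gated wild-type and none in gated Sin3B-/- cells, at least 12.3-fold lower with a floor of 3 counts over the group.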

How the data were processed

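LSK cells were profiled by scRNA-Seq with hashtag antibodies. The authors aligned reads with Cell Ranger (version 4 per the file headers for the homeostasis library) and deposited unfiltered counts, whole UMIs per gene and barcode. The labels name the mm9 build, which was not checked against the files here. Gene names came from the feature list of the 5-FU library (Cell Ranger 6.0.1), otherwise not used: gene totals of both libraries correlated at 0.926 in the listed row order and at most at 0.395 when shifted by 1 to 3 rows.

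Barcodes with at least 2921 UMIs (10% of the 99th percentile of the 10000 largest) were called cells, 23931 in all, of which 76 barcodes (0.318%) were also in the other library. HTODemux (Seurat 5.3.0, R 4.3.3, quantile 0.99) kept singlets. Barcodes with both tags were removed, and doublets within a genotype remain, since no doublet caller was run. Of gated cells, 373 had at least 2 UMIs of lineage genes and were kept. Hashtags were assigned to genotypes from the study's methods.

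Counts were summed over each pool and scaled to CPM. A log2 ratio is that of 2 pools with 0.5 counts added, with a 95% exact conditional interval, for genes with at least 50 UMIs over both pools. Because there was 1 pool per genotype, 2-fold ratios were counted and nothing was tested. Besides listed genes, the 12 highest and 12 lowest genes of each comparison by the interval bound nearest to 0 were ranked. Members and lists were chosen with earlier results of these data known. Python 3.11.15, numpy 2.4.6, scipy 1.17.1, pandas 2.3.3, scikit-learn 1.9.0 and matplotlib 3.10.9 were used. The ratio step was tested on simulated data. One gene of the lists is not reported here.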

Additional observations from a re-analysis of the deposited data

Results flagged for a closer look

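Ly6c2, a surface antigen gene of monocytes, had a log2 ratio of knockout over wild type of -4.11 in gated cells and of 0.73 in other singlets. Of its 128 UMIs in gated wild-type cells, 93.0% came from 10 of the 19 cells that had any, and Sin3B-/- gated cells had 3 UMIs. Elane, with -2.82 in gated cells and 0.40 outside, was singled out in the same way, and neither difference between the compartments was tested. Cells with both hashtags, which entered no comparison, passed the gate in 46.1% of 1441 cases (43.5 to 48.8), above the singlets, and their gated cells had a median of 13844 UMIs. Cells with no hashtag passed in 21.3% of 6283 cases at a median of 5929 UMIs.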

How the results depend on the processing

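No paired analysis was possible because the labels carry no replicate numbers and each genotype was 1 pool, and for the same reason no replicate could be left out. The share of gated cells was, for wild type and Sin3B-/- in turn, 45.1% and 55.0% with 4 gate genes, 10.9% and 18.0% with 6, 8.86% and 16.3% at 4000 UMIs, 26.4% and 27.5% under the mixture of tag ratios, and 27.05% and 36.5% with a stricter UMI minimum of 5842. It was 23.8% in wild type with part of the study's filters added and 48.9% in Sin3B-/- cells with the 80% tag rule. The filters used here cut both ends of UMIs, genes and mitochondrial share and removed cells with at least 2 UMIs of lineage genes. The study removed cells with any lineage marker. It also removed cells with genes of biased and lineage-primed stem cells, and that step was not applied here. The difference in gate share was 7.11 points with 6 genes, 7.47 at 4000 UMIs, 23.5 under the 80% tag rule, 1.11 under the mixture and 10.9 with part of the study's filters. Genes at least 2-fold higher in the gate numbered 3065 without a filter on low counts, against 565. Those lower numbered 547 at 4000 UMIs, 356 with at least 20 UMIs and 1445 without a filter, against 217. Genes higher in Sin3B-/- gated cells numbered 82, 359 and 2462 under the same 3 settings, against 190, and genes lower 110, 431 and 1801, against 228. The number of genes measured changed as well. At 4000 UMIs genes lower in the gate were 3.85% of 14210, against 1.37% of 15868. Genes higher and lower in Sin3B-/- gated cells were then 0.801% and 1.07% of 10237, against 1.39% and 1.66% of 13712. The number measured with at least 20 UMIs and without a filter is not given here. The gate ratio of Iglc1 turned to 5.44 with 4 gate genes, 0.33 under the 80% tag rule and 0.25 with part of the study's filters. With 4 gate genes it turned to 0.42 for Igha and 3.78 for Iglv1, whose UMIs came from few cells. Of 509 values of 49 named genes under the alternatives, 84 left their counting interval and these 5 changed sign. Of 649 medians of 59 list results, 77 moved by more than the typical counting error of a member. Medians of the erythroid, interferon and stromal lists in the gate comparison, and of the imprinted, glycolysis, erythroid, B cell, stromal, sort lineage, interferon, MHC and DREAM lists in the genotype comparison, changed sign under at least 1 alternative. The cause was not tested. Depth limits rare genes, of which those under 50 UMIs over both pools were not compared.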

Other observations

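Several gene lists differed little between gated and other cells. Of 20 measured interferon response genes 12 were higher in the gate (median 0.04), of 12 MHC class I and II genes 9 (median 0.16), and of 15 glycolysis genes 4 (median -0.09). All 14 ribosome assembly genes were lower, by a median of -0.14. Between genotypes inside the gate the interferon and MHC lists had medians of -0.02 and 0.00, and 12 of 13 mitochondrial genes were higher in Sin3B-/- cells by a median of 0.14. Imprinted genes had no common direction between genotypes (3 of 6 higher). Meg3 was at 18.3 CPM in wild-type and 14.6 CPM in Sin3B-/- gated cells, and at 3.3 and 6.2 CPM outside, a difference between the compartments that was not tested. Inside the gate its direction varied, with 15.4 CPM in wild-type and 6.8 CPM in Sin3B-/- cells at 5 gate genes, 13.3 and 17.95 CPM at 6, and 34.4 and 24.3 CPM at 7 to 9.

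Of the 24 genes ranked for the genotype comparison, 6 lie on chromosome 4 in GENCODE M21, and 4 of these are near neighbors. Between Elavl4 and Skint3 the annotation places 6 genes that were measured in gated cells, in the order Elavl4, Agbl4, Bend5, Spata6, Slc5a9 and Skint3. Elavl4 (log2 ratio 2.37), Agbl4 (2.38) and Slc5a9 (3.60) were higher in Sin3B-/- gated cells and Skint3 was listed at 0 UMIs there, while Bend5 (-0.48) and Spata6 (0.09) were within 2-fold. Over the whole of chromosome 4, 3.24% of 834 measured genes were at least 2-fold apart. This stretch was noticed after the values were seen, and its cause was not tested.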
